A study of Mus musculus with 34 samples.

Results

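The 40 genes described here encode the carriers of glucose and lactate, the enzymes of glycolysis with their tissue isoforms, the PFKFB enzymes that set the level of fructose 2,6-bisphosphate, and the sensors, factors and targets of the response to low oxygen. They were taken from the deposited expression tables by gene symbol, from a fixed list of names, and all 40 were listed in both tables, which hold 14552 genes (first) and 17406 genes (second). Of the 40, 39 had a mean of at least 1 CPM (read counts scaled to library size) in each table and were tested. Aldoc, which encodes the aldolase typical of brain, was under this level in both tables. TMM normalization of the values is given in the sources used here for the first table only.

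RNA was measured by sequencing of poly(A) libraries from the left ventricle (LV) of CFW mice, an outbred Swiss Webster stock, with myocardial infarction (MI) from a lasting ligature on the left anterior descending artery. The first table holds uninjected hearts, with 3 sham libraries (their labels give no operation, whereas the study describes sham-operated mice), 3 libraries 4 h post-MI and 4 libraries 24 h post-MI, taken from the ischemic area or its equivalent. The second table holds 2 libraries of uninjected sham-operated hearts labelled 4 h, and hearts that received modified mRNA (modRNA) at ligation, coding for luciferase (Luc), the control, or labelled AC, with 4 Luc and 4 AC libraries at 4 h, 3 and 3 at 24 h and 4 and 4 at 48 h. The sham hearts of the second table were not injected, so that ligation and injection cannot be told apart in its comparisons with sham, and the LV region sampled there is not given in the sources used here.

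Glycolysis turns glucose into pyruvate, and in a heart short of oxygen pyruvate is reduced to lactate, which leaves the cell through monocarboxylate carriers. Adult cardiomyocytes mainly use the muscle forms of several of these proteins (Slc2a4, Pfkm, Pgam2, Eno3) and the heart form of lactate dehydrogenase (Ldhb), while most other cells, leukocytes among them, use the other forms. When oxygen falls, prolyl hydroxylases (Egln1, Egln3) no longer mark hypoxia-inducible factor (HIF) for decay, and HIF binds promoters and enhancers of many glycolytic genes.

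The first table rested on 12553519 to 18952669 estimated reads per library within its listed genes, and the depth of the second is unknown. The estimate is not the full sequencing depth, and the paper gives a higher mean number of reads per sample. In every library the 40 genes together took between 1.50% and 2.10% of the summed CPM. The summed CPM of 10 cardiomyocyte markers lay between 58601 and 63168 in sham, between 58985 and 64686 at 4 h and between 28257 and 44483 at 24 h in the first table, whereas that of 9 neutrophil markers rose from between 2.07 and 3.61 in sham to between 350 and 2107 at 24 h (9 of 9 called higher), and that of 10 monocyte and macrophage markers from between 117 and 190 to between 386 and 776 (6 of 10 called higher). The 3 atrial markers listed in this table, which include Nppa, a gene that ventricles also induce under stress, summed to between 80.5 and 296 in sham and between 1150 and 1822 at 24 h. In LV tissue, fewer cells of a type and less RNA per cell cannot be told apart, and the part of these changes in the results below was not tested.

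The infarcted hearts at 4 h had 3 of the 39 genes higher than sham hearts and none lower (limma on log2(CPM + 1), Benjamini-Hochberg adjusted p under 0.05 over all genes tested). Of all 12487 genes tested, 2.37% passed in this comparison (1.55% higher and 0.817% lower), and the median log2 fold change was 0.02 over the members and -0.03 over all genes. The 3 genes were Pfkfb3, the PFKFB form with the strongest kinase activity, Adm, which encodes the vasodilator peptide adrenomedullin, and Hif1a, which encodes the oxygen-regulated subunit of HIF-1. Pfkfb3 was measured at 6.40, 7.30 and 11.9 CPM in sham, 26.0, 46.9 and 23.1 CPM at 4 h, and 84.2, 106, 38.1 and 51.2 CPM at 24 h. Its libraries did not overlap with sham at 4 h (log2 fold change 1.77, SE 0.37, limma adjusted p = 0.033), and library D was the highest of the 3. Adm was measured at 4.45, 3.91 and 4.06 CPM in sham, 6.96, 9.91 and 9.25 CPM at 4 h, and 62.6, 51.5, 35.0 and 55.6 CPM at 24 h, so that each time point lay above the one before without overlap (log2 fold change 0.91, SE 0.19, limma adjusted p = 0.035 at 4 h). Hif1a was measured at 57.2, 59.1 and 63.1 CPM in sham, 106, 96.4 and 83.7 CPM at 4 h, and 151, 151, 111 and 113 CPM at 24 h, with the same order of groups and no overlap (log2 fold change 0.66, SE 0.14, limma adjusted p = 0.04 at 4 h). These 3 calls were close to the threshold: no member was called without the 4 h library D or without any one of the 3 sham libraries, and 1 was called without the 4 h library C or E. Cell type markers differed in the same 4 h libraries. The erythroid marker sum lay between 435 and 751 CPM against between 161 and 247 CPM in sham, with 4 of 5 markers called higher. The neutrophil sum lay between 8.72 and 35.8 CPM against between 2.07 and 3.61 CPM, and the fibroblast sum between 1230 and 1543 CPM against between 914 and 1042 CPM, with 8 of 9 and 5 of 8 markers higher without overlap (10.9% of all genes) and 0 called by limma. Their part in the 3 calls was not tested.

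Other members lay apart from sham at 4 h and did not pass the test. Ankrd37, which encodes an ankyrin repeat protein and is known as a HIF target, was measured at 4.92, 3.12 and 3.38 CPM in sham, 1.28, 1.82 and 1.63 CPM at 4 h, and 16.3, 11.5, 8.78 and 12.9 CPM at 24 h. All 3 libraries at 4 h lay below all sham libraries and all 4 at 24 h lay above them, and the difference at 4 h missed the threshold (log2 fold change -0.89, SE 0.21, limma adjusted p = 0.052). Slc16a3, the lactate exporter MCT4, had a log2 fold change of 0.86 ± 0.26 (SE; limma adjusted p = 0.14) at 4 h, and Pfkfb2, the heart form of PFKFB, one of -0.61 ± 0.22 (limma adjusted p = 0.21), both with no overlap of libraries. In all, 8 of 39 members did not overlap with sham at 4 h, 4 higher and 4 lower, against 28.8% of all genes tested (10.9% higher and 18% lower).

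A day after ligation (24 h), 31 members differed from sham, 23 higher and 8 lower, where 66% of all genes tested were called (35.6% higher and 30.3% lower). The median log2 fold change was 0.64 over the members and 0.04 over all genes. Of the carriers 4 of 5, all 4 PFKFB enzymes, every enzyme of lower glycolysis, and 6 of 7 HIF targets were called, while 4 of the 9 tested enzymes of upper glycolysis (Hk2, Gpi1, Aldoa and Tpi1) were not. Against the hearts at 4 h, 30 members were called at 24 h, 22 higher and 8 lower, with 63.9% of all genes called (37.2% higher and 26.7% lower). This comparison shares the 24 h libraries with the one against sham.

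**Figure D1:**
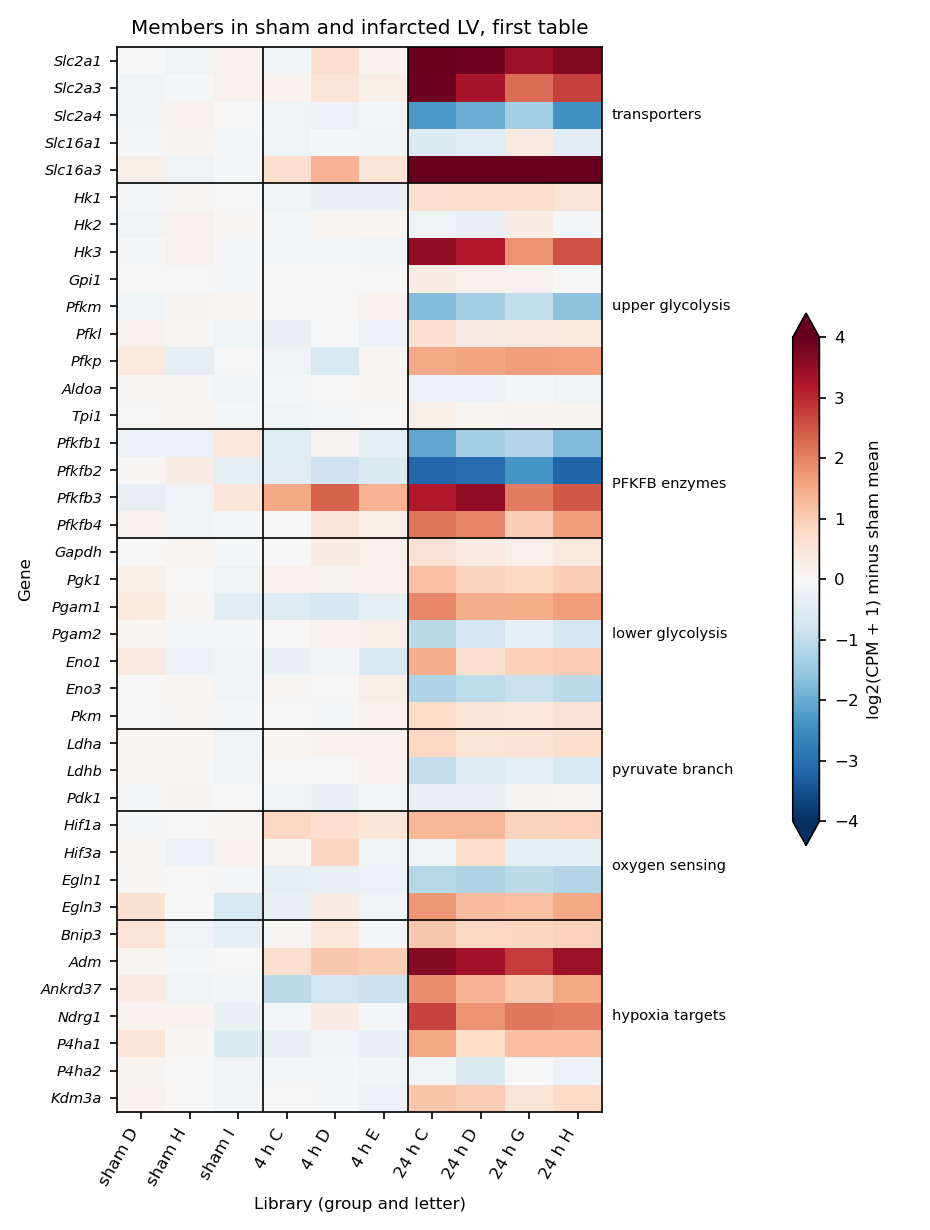
Heat map of the 39 tested genes in the 10 libraries of the first table, in rows grouped by role. Color shows log2(CPM + 1) minus the mean of the 3 sham libraries, from -4 (blue) to 4 (red), and values past these ends take the end color. The 4 libraries at 24 h stand apart in both directions, with Slc16a3 and Slc2a1 the highest and Pfkfb2 the lowest, and library G at 24 h is paler than the other 3 for Slc2a3, Hk3, Pfkfb3 and Slc2a4.

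The promoters of the members were searched for the core letters that HIF is known to bind, ACGTG or GCGTG on either strand, in the 250 bases before and 50 after each gene start given by RefSeq (GRCm38.p6). Of the 37 members with a promoter in that table (Slc2a3, Slc2a4 and Ndrg1 had none), 23 held ACGTG (62.2%, against 21.8% of all 27025 genes) and 34 held ACGTG or GCGTG (91.9% against 46.7%). A gene was counted if any of its promoters held the letters, and members had more promoters per gene. Counted by promoter, 47.4% of 57 member promoters held ACGTG, against 19.6% of all 32851, and 77.2% against 43.8% held ACGTG or GCGTG. The member promoters were richer in G and C, with a median of 60.7% against 52.7% over all promoters, which was not corrected for. Among members higher at 24 h, 15 of 21 held ACGTG, among those lower 3 of 7, and among those not called 4 of 8 (Aldoc, also matched, was not tested). For ACGTG or GCGTG the counts were 21 of 21, 6 of 7 and 6 of 8, so that most members of each class held a core. The windows below show 1 site in each of 9 genes that were higher at 24 h and in 2 that were lower, Pfkfb2 and Egln1, so that the letters can be read beside the values. Each runs 5′ to 3′ on the strand of the gene, with the core in capitals, and the distance is that of the middle core base from the gene start.
Slc16a3, 12 bases before the start, chr11:120949043-120949067 (plus strand): tgcgcgggggACGTGccgcgcgacg
Slc2a1, 34 bases before the start, chr4:119108699-119108723 (plus strand): cccgccccggACGTGctccccaggc
Pfkfb3, 50 bases before the start, chr2:11502128-11502152 (minus strand): ccttctctccACGTGaaagggggct
Pgk1, 148 bases before the start, chrX:106186940-106186964 (plus strand): gtcgtgcaggACGTGacaaatggaa
Pgam1, 112 bases before the start, chr19:41911747-41911771 (plus strand): ctccttgcttACGTGcgctccgtga
Ldha, 45 bases before the start, chr7:46845747-46845771 (plus strand): cccagcctacACGTGggttcccgca
Hif1a, 132 bases before the start, chr12:73907723-73907747 (plus strand): acagacaagcACGTGagcggggcag
Ankrd37, 4 bases before the start, chr8:45999842-45999866 (minus strand): gtgtttgggtACGTGaggccgcagc
Egln3, 227 bases before the start, chr12:54204089-54204113 (minus strand): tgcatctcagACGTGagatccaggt
Pfkfb2, 19 bases before the start, chr1:130715828-130715852 (minus strand): caagcgccccACGTGactcgcccca
Egln1, 66 bases before the start, chr8:124949308-124949332 (minus strand): gccgtggtgtACGTGcagcgcgcgc
In the windows of Pfkfb3, Ldha, Hif1a and Pfkfb2 the letters CACGTG read the same on both strands, so that the core lies on each strand. These matches describe the letters only, and binding was not measured.

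Among the 5 carriers, 3 rose and 1 fell at 24 h. Slc16a3 was measured at 1.95, 1.17 and 1.40 CPM in sham, 2.93, 5.55 and 2.59 CPM at 4 h, and 155, 111, 76.8 and 104 CPM at 24 h. All 4 libraries at 24 h lay far above the other 6 (log2 fold change 5.45, SE 0.25, limma adjusted p = 6.5e-08), 73.9 ± 29.1 (SD)-fold in mean CPM and the largest change of any member. Slc2a1, which encodes the ubiquitous glucose carrier GLUT1, was measured at 12.6, 10.9 and 14.0 CPM in sham, 11.3, 19.9 and 13.8 CPM at 4 h, and 258, 194, 146 and 171 CPM at 24 h, so that it overlapped with sham at 4 h and rose 15.4 ± 4.29 (SD)-fold at 24 h (log2 fold change 3.82, SE 0.21, limma adjusted p = 1.6e-07). Slc2a3, which encodes the high-affinity carrier GLUT3 of neurons and leukocytes, was measured at 1.27, 1.33 and 1.72 CPM in sham, 1.66, 2.59 and 1.94 CPM at 4 h, and 36.3, 22.9, 10.5 and 15.2 CPM at 24 h (log2 fold change 3.05, SE 0.31, limma adjusted p = 8.8e-06 at 24 h). Its 24 h libraries followed the order of the neutrophil marker sum, which was 2107 CPM in C, 1906 in D, 935 in H and 350 in G. The monocyte and macrophage marker sum had the same order, at 776, 511, 477 and 386 CPM. The cardiomyocyte marker sum had the reverse order, at 28257, 35146, 35744 and 44483 CPM, and the fibroblast sum had neither. The 24 h libraries of Slc2a1, Slc16a3, Hk3, Pfkfb4 and Kdm3a had the same order as those of Slc2a3. The part of these cell types in the values of these genes was not tested. Slc2a4, the insulin-responsive carrier GLUT4 of muscle, went the other way and was measured at 312, 380 and 341 CPM in sham, 296, 292 and 322 CPM at 4 h, and 69.4, 85.8, 134 and 63.5 CPM at 24 h. It fell without overlap at 24 h (log2 fold change -2.01, SE 0.21, limma adjusted p = 9.6e-06), least in library G. Slc16a1, the carrier MCT1, lay between 122 and 227 CPM at 24 h and between 167 and 193 CPM in sham and was not called (log2 fold change -0.27, SE 0.19, limma adjusted p = 0.22).

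Of the 9 tested enzymes of upper glycolysis, 4 rose and 1 fell at 24 h. Hk3, the hexokinase of myeloid cells, was measured at 1.05, 1.45 and 1.07 CPM in sham, 1.09, 1.05 and 1.01 CPM at 4 h, and 24.4, 19.1, 6.52 and 11.8 CPM at 24 h. Like Slc2a3, Slc2a1 and Slc16a3, it was highest in library C and lowest in library G. All 4 of its 24 h libraries lay above every other library (log2 fold change 2.77, SE 0.32, limma adjusted p = 2.2e-05). Hk1, the widely expressed hexokinase, rose from between 170 and 185 CPM to between 255 and 292 CPM (log2 fold change 0.64, SE 0.09, limma adjusted p = 7.8e-05), and Hk2, the insulin-responsive form of muscle, was not called (log2 fold change -0.07, SE 0.15, limma adjusted p = 0.7). Pfkm, the muscle phosphofructokinase, was measured at 747, 903 and 888 CPM in sham, 858, 830.4 and 957 CPM at 4 h, and 254, 334, 422 and 277 CPM at 24 h, and fell at 24 h without overlap (log2 fold change -1.42, SE 0.17, limma adjusted p = 2.3e-05). Pfkp, the platelet form, was measured at 131, 75.5 and 101 CPM in sham, 90.2, 63.3 and 105 CPM at 4 h, and 288, 300.1, 322 and 316 CPM at 24 h, and rose (log2 fold change 1.60, SE 0.19, limma adjusted p = 2.6e-05), as did the liver form Pfkl (log2 fold change 0.42, SE 0.12, limma adjusted p = 0.0073). The 3 enzymes that join these steps, Gpi1, Aldoa and Tpi1, had log2 fold changes of 0.17 ± 0.09, -0.18 ± 0.12 and 0.13 ± 0.10 (SE) and did not pass the test (limma adjusted p = 0.13, 0.21 and 0.27).

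All 4 PFKFB genes changed at 24 h, 2 in each direction. Pfkfb3 rose (log2 fold change 2.83, SE 0.35, limma adjusted p = 3.2e-05) and Pfkfb4 rose from between 2.38 and 3.07 CPM to between 6.12 and 15.1 CPM (log2 fold change 1.69, SE 0.24, limma adjusted p = 9.9e-05). Pfkfb2 was measured at 115, 136 and 85.0 CPM in sham, 79.3, 62.1 and 74.7 CPM at 4 h, and 11.6, 12.5, 20.4 and 11.0 CPM at 24 h. It fell to 0.124 ± 0.0485 (SD) of its sham mean (log2 fold change -2.94, SE 0.21, limma adjusted p = 8.2e-07), the largest decrease of any member, and library G was the highest of the 4. Pfkfb1, the form of liver and muscle, was measured at 6.33, 6.21 and 10.8 CPM in sham, 5.15, 8.23 and 5.57 CPM at 4 h, and 1.01, 2.41, 2.82 and 1.48 CPM at 24 h, and fell as well (log2 fold change -1.59, SE 0.25, limma adjusted p = 0.00021).

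Each of the 7 enzymes of lower glycolysis changed at 24 h, 5 up and 2 down. Gapdh was measured at 128, 136 and 122 CPM in sham, 131, 159 and 149 CPM at 4 h, and 192, 159.8, 147 and 168 CPM at 24 h, with a rise that no library of sham reached (log2 fold change 0.37, SE 0.11, limma adjusted p = 0.012). Pgk1 rose from between 254 and 346 CPM to between 526 and 661 CPM (log2 fold change 0.97, SE 0.12, limma adjusted p = 4.4e-05), and Pkm from between 800 and 877 CPM to between 1117 and 1403 CPM (log2 fold change 0.55, SE 0.12, limma adjusted p = 0.0022). Pgam1, the phosphoglycerate mutase of most tissues, was measured at 102, 79.5 and 56.9 CPM in sham, 54.0, 47.7 and 58.8 CPM at 4 h, and 297, 215, 216 and 246 CPM at 24 h. At 4 h it lay within or below the low end of sham and at 24 h above all of it (log2 fold change 1.63, SE 0.18, limma adjusted p = 1.5e-05). Pgam2, the muscle form, was measured at 413, 373 and 378 CPM in sham, 396, 432 and 463 CPM at 4 h, and 182, 234, 305 and 244 CPM at 24 h, and fell (log2 fold change -0.71, SE 0.15, limma adjusted p = 0.0017). Eno3, the muscle enolase, was measured at 1125, 1177 and 1042 CPM in sham, 1140, 1136 and 1346 CPM at 4 h, and 479.9, 555, 606 and 537 CPM at 24 h, and fell to 0.489 ± 0.0554 (SD) of its sham mean (log2 fold change -1.04, SE 0.12, limma adjusted p = 2.6e-05). Eno1, the enolase of most tissues, was listed at only 3.02, 1.66 and 1.87 CPM in sham, 1.59, 1.90 and 1.05 CPM at 4 h, and 7.57, 3.89, 5.07 and 5.31 CPM at 24 h (log2 fold change 1.01, SE 0.21, limma adjusted p = 0.0013). Its value is uncertain, since the counting may have divided reads between Eno1 and its near-identical copy Eno1b, which was listed at 107 to 118 CPM in sham and 383 to 729 CPM at 24 h. Gapdh, Pgam1, Ldha, Tpi1 and Pkm also have processed copies in the mouse genome, and their values are uncertain to the extent that reads were divided.

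At the end of the pathway, Ldha, the lactate dehydrogenase subunit of muscle and hypoxic cells, was measured at 518, 516 and 441 CPM in sham, 513, 544 and 558 CPM at 4 h, and 871, 724, 726 and 792 CPM at 24 h. It rose at 24 h (log2 fold change 0.66, SE 0.11, limma adjusted p = 0.00037). Ldhb, the heart subunit, was measured at 1133, 1122 and 988 CPM in sham, 1060, 1102 and 1192 CPM at 4 h, and 559.6, 747, 824 and 692 CPM at 24 h, and fell (log2 fold change -0.63, SE 0.14, limma adjusted p = 0.0025). For neither gene did sham and 24 h libraries overlap. Pdk1, a kinase that keeps pyruvate out of mitochondria and a known HIF target, was measured at 167, 191 and 175 CPM in sham, 153, 148 and 168 CPM at 4 h, and 139.6, 149, 191 and 185 CPM at 24 h, and was not called (log2 fold change -0.11, SE 0.12, limma adjusted p = 0.47).

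The balance of isoforms was also taken as the log2 ratio of CPM of 2 genes within a library, which no scaling between libraries can change. At 24 h, Ldha/Ldhb was 0.15 ± 0.36 (SD, n = 4) against -1.14 ± 0.02 (n = 3) in sham, a difference of 1.29. Pgam1/Pgam2 was 0.03 ± 0.50 against -2.33 ± 0.37, and Pfkp/Pfkm -0.04 ± 0.28 against -3.08 ± 0.54. Slc2a1/Slc2a4 differed the most of the 5, with 1.16 ± 0.75 against -4.79 ± 0.30, a difference of 5.94. Eno1/Eno3 differed by 2.37, and by 3.21 when Eno1 and Eno1b were summed. All 5 ratios were higher in all 4 libraries at 24 h than in any sham library, each with an exact permutation p = 0.057 (two-sided), the smallest that 4 against 3 libraries allow, and an adjusted p = 0.18 over the 25 ratio tests. At 4 h, Ldha/Ldhb (difference 0.08) and Pgam1/Pgam2 (difference -0.68) were the 2 of these 5 ratios without overlap, each at the smallest exact permutation p that 3 against 3 allow, 0.1 (adjusted p = 0.25).

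**Figure D2:**
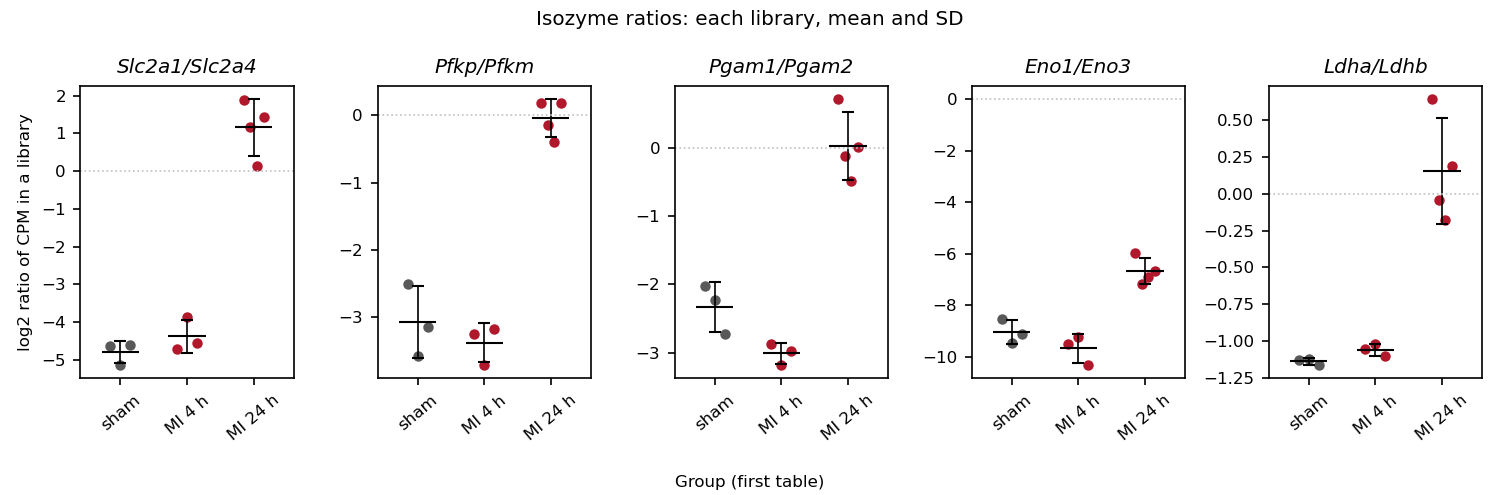
Log2 ratio of the CPM of 2 isoform genes within each library of the first table (y axis), for 5 pairs, in sham, 4 h and 24 h post-MI hearts (x axis). Points are libraries, bars the mean and SD, and dotted lines mark a ratio of 1. In all 5 pairs the 4 points at 24 h lie above every sham and 4 h point, and the y axes differ between pairs.

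The 8 members that fell at 24 h were also given per 1000 CPM of cardiomyocyte markers, since the marker sum was lower too, with 5 of the 10 markers called lower and 1 higher. Per marker CPM, 6 of the 8 were lower at 24 h in every library than in any sham library. The 8 were chosen for their fall in these same libraries. The share of all genes on this scale was not counted, so that the 6 of 8 cannot be set against it. Pfkfb2 stood at 0.209 of its sham mean, Pfkfb1 at 0.406, Slc2a4 at 0.428, Pfkm at 0.641, Egln1 at 0.783 and Eno3 at 0.838. Pgam2 and Ldhb overlapped with sham on this scale, at 1.05 and 1.11 of their sham means. The markers are themselves genes that can change within a cell, so that the scale is a description of these libraries.

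**Figure D3:**
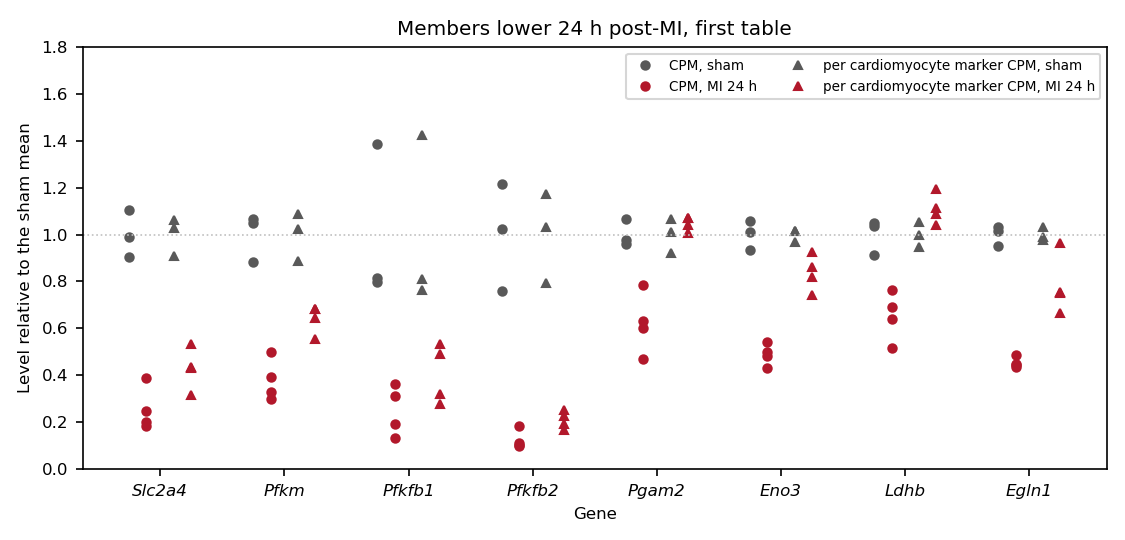
The 8 members lower at 24 h post-MI (x axis) relative to their sham mean (y axis, linear from 0), as CPM (circles) and per cardiomyocyte marker CPM (triangles), in 3 sham libraries (grey) and 4 libraries at 24 h (red). All red circles lie below all grey circles of the same gene, and the red triangles of Pgam2 and Ldhb overlap the grey ones.

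Of the 4 genes of oxygen sensing, 2 rose and 1 fell at 24 h. Hif1a rose 2.20 ± 0.392 (SD)-fold (log2 fold change 1.11, SE 0.13, limma adjusted p = 2.9e-05). Egln3, a hydroxylase that HIF itself induces, was measured at 187, 124 and 77.7 CPM in sham, 100.4, 151 and 108 CPM at 4 h, and 406, 287, 275 and 354 CPM at 24 h. Sham library D had the highest sham value, and all 4 libraries at 24 h lay above it (log2 fold change 1.41, SE 0.26, limma adjusted p = 0.00057). Egln1, the main hydroxylase of normal tissue, was measured at 376, 370.5 and 347 CPM in sham, 287, 295 and 312 CPM at 4 h, and 163, 158, 177 and 162 CPM at 24 h, with each group below the one before and no overlap (log2 fold change -1.14, SE 0.09, limma adjusted p = 1.3e-06 at 24 h). Hif3a, whose products can oppose HIF-1, was low at 1.63, 1.13 and 1.76 CPM in sham, 1.62, 3.54 and 1.16 CPM at 4 h, and 1.24, 3.03, 0.886 and 0.951 CPM at 24 h, and was not called at either time, with library D the highest in both infarct groups.

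Of the 7 hypoxia targets, 6 rose at 24 h and P4ha2 did not pass the test. Adm rose 12.4 ± 2.94 (SD)-fold (log2 fold change 3.31, SE 0.18, limma adjusted p = 1.7e-07), and Ankrd37 3.25 ± 1.17 (SD)-fold (log2 fold change 1.46, SE 0.19, limma adjusted p = 5.5e-05). Ndrg1, a stress-induced gene of growth arrest, was measured at 37.5, 37.6 and 27.2 CPM in sham, 32.6, 42.0 and 32.9 CPM at 4 h, and 224, 118, 149.6 and 144 CPM at 24 h, with library C the highest (log2 fold change 2.16, SE 0.20, limma adjusted p = 3.8e-06 at 24 h). Bnip3, which encodes a mitochondrial protein of mitophagy and cell death, was measured at 141, 86.9 and 73.8 CPM in sham, 99.7, 128 and 94.6 CPM at 4 h, and 204, 172, 178 and 184 CPM at 24 h, with a wide spread in sham, from library I to library D (log2 fold change 0.92, SE 0.19, limma adjusted p = 0.0013 at 24 h). P4ha1, a subunit of the prolyl hydroxylase that matures collagen, was measured at 64.6, 46.9 and 30.3 CPM in sham, 36.3, 41.1 and 35.7 CPM at 4 h, and 134, 76.3, 105 and 105 CPM at 24 h (log2 fold change 1.17, SE 0.23, limma adjusted p = 0.0009 at 24 h). The sham libraries kept one order (D, H, I) in Egln3, Bnip3, P4ha1 and Pgam1. Kdm3a, a histone demethylase, rose from between 23.2 and 27.7 CPM to between 36.8 and 55.9 CPM (log2 fold change 0.86, SE 0.14, limma adjusted p = 0.00023), and P4ha2, the other collagen hydroxylase subunit, had a log2 fold change of -0.24 ± 0.13 (SE; limma adjusted p = 0.12).

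In the second table, the members of Luc hearts were compared with 2 sham libraries and between times. The sham and 4 h libraries carry one series of sample-sheet numbers in their names, the 48 h libraries another and the 24 h libraries none. The names of all 24 h libraries of this table, and of no others, hold the letters Br. The meaning of these letters is not given in the sources used here. Time and library set therefore cannot be told apart, while AC and Luc hearts were compared within a time. The median log2 fold change of all genes was itself shifted, to 0.16 for Luc at 24 h against sham and to -0.25 for Luc at 48 h against 24 h, and rescaling by median ratios brought both near 0 (-0.01 and -0.03).

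At 4 h in Luc hearts no member was called against sham, where 1.55% of all genes were, and 6 of 39 had an unadjusted p under 0.05 by limma, against 13.6% of all genes. The median log2 fold change was 0.29 over the members and 0.02 over all genes, and 19 members were higher and 2 lower without overlap of libraries, against 17.2% and 15.3% of all genes (32.5% in either direction). Slc16a3 and Adm had the largest log2 fold changes, 1.30 ± 0.45 and 1.34 ± 0.46 (SE; limma adjusted p = 0.18 for each), with all 4 libraries above both sham libraries. At 24 h, 18 members were called against sham, 15 higher and 3 lower, with 34.1% of all genes called (25.3% higher and 8.79% lower), and the split was 11 and 5 under median-ratio and 8 and 6 under equal-total rescaling. Without sham library 1, 6 members were called. At 48 h, 18 were called, 10 higher and 8 lower (15 and 5 under equal-total rescaling), with 30.1% of all genes called (13.7% higher and 16.4% lower), and 10 were called without sham library 2 and 11 without sham library 1. These comparisons share the 2 sham libraries.

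Slc16a3, Adm and Slc2a1 had the largest increases on the log2(CPM + 1) scale in Luc hearts at 48 h, and with Pfkfb3 also at 24 h. Hk3, whose change this scale understates because its CPM was low, was also called higher than sham at 48 h. Its call held under all 33 alternative settings in which it was tested. Slc2a1 was measured at 8.12 and 12.9 CPM in sham, 18.6, 14.6, 13.2 and 14.3 CPM at 4 h, 43.3, 32.0 and 34.5 CPM at 24 h, and 69.9, 33.6, 90.5 and 36.2 CPM at 48 h. All infarct libraries lay above both sham libraries (log2 fold change 1.73, SE 0.30, limma adjusted p = 0.00017 at 24 h and log2 fold change 2.26, SE 0.29, limma adjusted p = 8e-06 at 48 h). Slc16a3 was measured at 0.815 and 1.52 CPM in sham, 6.85, 3.79, 4.47 and 2.73 CPM at 4 h, 11.3, 4.67 and 5.76 CPM at 24 h, and 45.1, 18.1, 46.4 and 22.3 CPM at 48 h, so that its 48 h libraries lay above all of the earlier ones (log2 fold change 3.87, SE 0.45, limma adjusted p = 2.8e-06 against sham). Adm was measured at 3.91 and 2.54 CPM in sham, 8.88, 10.0, 9.78 and 9.54 CPM at 4 h, 44.1, 18.3 and 30.4 CPM at 24 h, and 37.1, 11.5, 56.3 and 10.9 CPM at 48 h (log2 fold change 2.85, SE 0.48, limma adjusted p = 0.00013 at 24 h). At 48 h, libraries 1 and 3 held high values of Slc2a1, Slc16a3 and Adm and libraries 2 and 4 low ones. The values given below for Pfkfb3, Hif3a, Ndrg1 and Ldhb split in this way too, as did, by less, those of Bnip3 and Egln1. Those of P4ha1 and Hk3 split the other way. The neutrophil marker sum was also higher in libraries 1 and 3, at 535 and 268 CPM, than in libraries 2 and 4, at 222 and 148 CPM. In sham it was 3.33 and 22.7 CPM (9 of 9 markers called higher than in sham). The cardiomyocyte marker sum split the same way, at 60927 and 51271 against 45252 and 43138 CPM. So did the summed CPM of all genes, at 641170 and 566755 against 508204 and 515536. The fibroblast marker sum went the other way, at 1179 and 924 against 1206 and 1725 CPM. The monocyte and macrophage sum did not split in this way. The part of these differences in the values of these genes was not tested. Pfkfb3 was measured at 19.5 and 23.4 CPM in sham, 38.9, 31.3, 43.1 and 29.4 CPM at 4 h, 233, 164 and 65.6 CPM at 24 h, and 61.5, 14.3, 49.5 and 11.8 CPM at 48 h, with its highest values at 24 h (log2 fold change 2.62, SE 0.69, limma adjusted p = 0.006).

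Of the muscle forms, Slc2a4, Pfkm and Eno3 were lower than in sham in Luc hearts at 48 h, and Pgam2 was not called, with means of 403 CPM in Luc and 404 CPM in sham hearts (log2 fold change -0.01, SE 0.29, limma adjusted p = 0.99). At 24 h, Slc2a4 and Pfkm were not called, with log2 fold changes of 0.39 ± 0.17 and 0.25 ± 0.17 (SE; limma adjusted p = 0.068 and 0.25), and the cardiomyocyte marker sum lay between 78880 and 99474 CPM against between 63814 and 68499 CPM in sham. At 48 h both were lower than in sham (log2 fold change -0.50, SE 0.16, limma adjusted p = 0.019 for Slc2a4 and log2 fold change -0.92, SE 0.16, limma adjusted p = 0.00019 for Pfkm), as were Eno3 (log2 fold change -0.93, SE 0.24, limma adjusted p = 0.0057) and Egln1 (log2 fold change -0.79, SE 0.14, limma adjusted p = 0.00033), and the marker sum lay between 43138 and 60927 CPM. Pfkfb2 was lower at both times (log2 fold change -1.47, SE 0.30, limma adjusted p = 0.00089 at 24 h and log2 fold change -1.04, SE 0.29, limma adjusted p = 0.009 at 48 h). Side by side, the 24 h infarcts of the first table held cardiomyocyte marker sums of 28257 to 44483 CPM and neutrophil marker sums of 350 to 2107 CPM, and the Luc hearts at 24 h neutrophil marker sums of 58.2 to 115 CPM. The tables were normalized separately, and no test was made between them.

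Other members also differed between times in Luc hearts. Hif3a was measured at 1.70 and 3.78 CPM in sham, 1.57, 1.65, 1.56 and 1.29 CPM at 4 h, 11.4, 6.97 and 9.33 CPM at 24 h, and 5.15, 2.86, 6.27 and 2.68 CPM at 48 h. All 3 libraries at 24 h lay above every other Luc and sham library (log2 fold change 2.00, SE 0.24, limma adjusted p = 3.5e-06 against 4 h). P4ha1 was measured at 56.8 and 46.7 CPM in sham, 67.5, 77.4, 67.3 and 74.2 CPM at 4 h, 31.6, 33.0 and 33.9 CPM at 24 h, and 40.6, 44.9, 37.5 and 59.8 CPM at 48 h, and was lower at 24 h than at 4 h (log2 fold change -1.10, SE 0.18, limma adjusted p = 0.00014) and than in sham (log2 fold change -0.64, SE 0.22, limma adjusted p = 0.028). The call of P4ha1 against sham was lost in 4 of 33 alternative settings, and that against 4 h in none. P4ha2 was likewise lower at 24 h than in sham (log2 fold change -0.65, SE 0.16, limma adjusted p = 0.0032). Ankrd37 was 6.75 ± 3.87 (SD)-fold higher at 48 h than at 24 h (log2 fold change 1.88, SE 0.39, limma adjusted p = 0.00085). In all, 12 members were called between 24 and 4 h, 9 higher and 3 lower (7 and 4 under median-ratio and 5 and 5 under equal-total rescaling), with 32.3% of all genes called (24.5% higher and 7.8% lower). Between 48 and 24 h 20 were called, 6 higher and 14 lower, with 41.9% of all genes called (9.32% higher and 32.6% lower), and the split turned to 9 and 8 under median-ratio and 15 and 4 under equal-total rescaling.

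**Figure D4:**
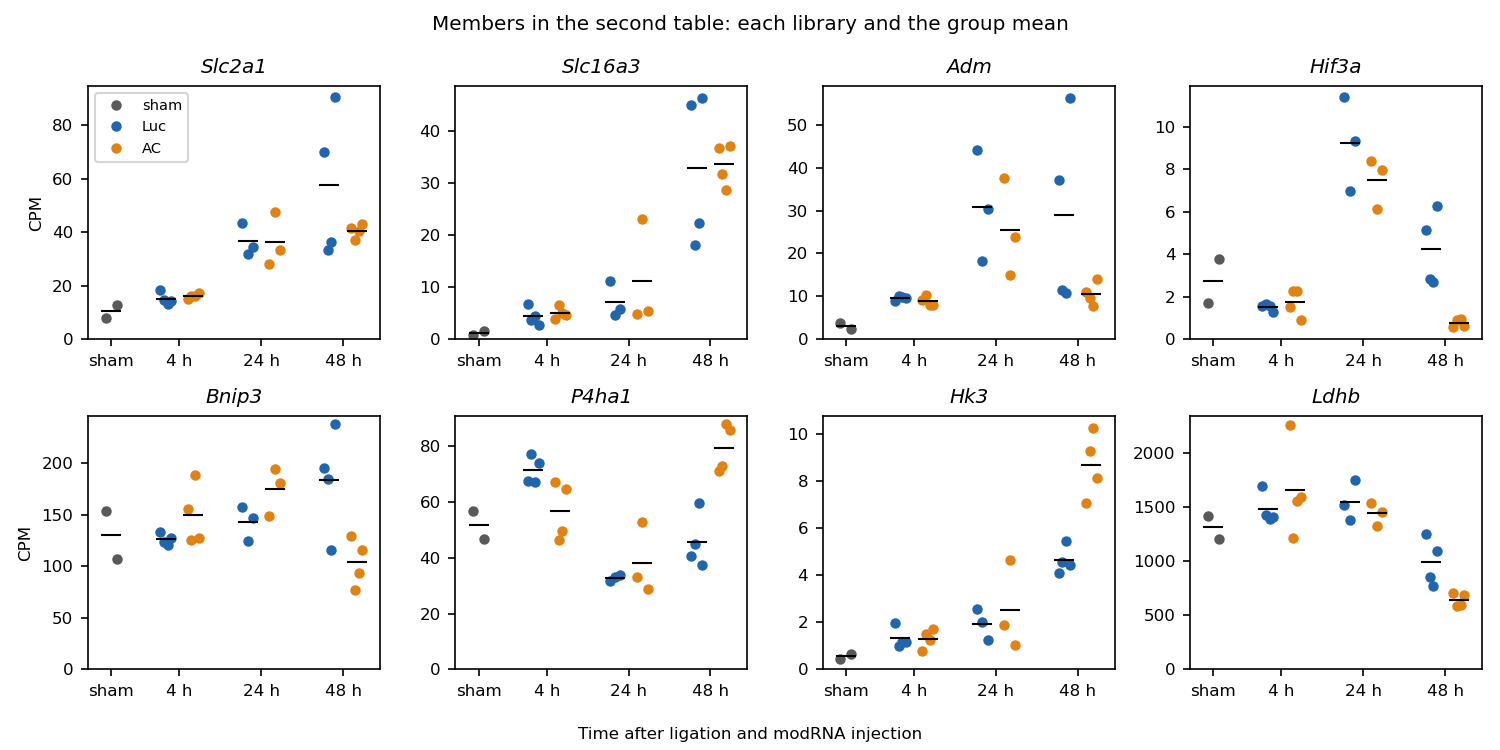
CPM (y axis, linear from 0) of 8 members in every library of the second table, in sham hearts (grey) and Luc (blue) and AC (orange) modRNA hearts 4, 24 and 48 h post-MI (x axis), with lines at group means. AC and Luc points of these genes overlap at 4 and 24 h, and at 48 h they separate without overlap for Hif3a, P4ha1, Hk3 and Ldhb.

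AC and Luc hearts were compared at each time, which asks whether the AC modRNA changed the response to MI. At 4 h no member was called, where 1 gene of all those tested was (0.00796%), and the log2 fold changes of the members lay between -0.36 and 0.23 with a median 95% half-width of 0.39. At 24 h none was called either (0.00796% of all genes), with changes between -0.57 and 0.63 and a median half-width of 0.45. No member had an unadjusted p under 0.05 by limma at 4 or 24 h, against 1.04% and 4.77% of all genes. Over both times the 95% intervals reached from -1.85 to 1.50 on the log2 scale. AC hearts at 4 h held erythroid marker sums of 2436 to 10695 CPM against 1723 to 2581 CPM in Luc hearts.

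At 48 h, 8 of 39 members differed between AC and Luc hearts, 2 higher and 6 lower, with 15.3% of all genes called (12.1% higher and 3.27% lower). The median log2 fold change was -0.26 over the members and 0.14 over all genes, and 2 members were higher and 6 lower without overlap of libraries, against 15.5% and 3.58% of all genes (19.1% in either direction). Of these, Slc2a4, Pfkm and Slc16a1 were lower without overlap and not called. With median-ratio rescaling, which set the median of all genes to 0.00, 15 members were called, 1 higher and 14 lower, and the median of the members was -0.41. The count fell to 3 without AC library 2 or without Luc library 1, to 4 without AC library 4 or Luc library 3 and to 5 without AC library 5, and rose to 11 at most when a library was left out. In the same libraries the cardiomyocyte marker sum was 31238 to 42275 CPM in AC and 43138 to 60927 CPM in Luc hearts, the fibroblast marker sum 2143 to 3584 against 924 to 1725 CPM (5 of 8 markers called higher), and the monocyte and macrophage marker sum 455 to 666 against 221 to 315 CPM (7 of 10 called higher). The atrial marker sum was 1227 to 2966 CPM in AC and 533 to 1169 CPM in Luc hearts. Their part in the results was not tested.

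The lower members at 48 h were the oxygen-sensing genes Hif3a and Egln1, the HIF targets Bnip3 and Ndrg1, and the enzymes Ldhb and Pfkfb1. Hif3a was measured at 0.581, 0.915, 0.976 and 0.642 CPM in AC and at 5.15, 2.86, 6.27 and 2.68 CPM in Luc hearts. All AC libraries lay below all Luc libraries, at 0.184 ± 0.0891 (SD) of the Luc mean (log2 fold change -1.50, SE 0.22, limma adjusted p = 0.00016), and it stayed called under all 33 alternative settings in which it was tested. Bnip3 was measured at 129.7, 77.1, 93.5 and 115 CPM in AC and at 195, 184, 238 and 116 CPM in Luc hearts, with the Luc library of library 4 inside the AC range (log2 fold change -0.79, SE 0.19, limma adjusted p = 0.0084). Ndrg1 was measured at 33.9, 35.9, 54.2 and 42.1 CPM in AC and at 76.4, 51.5, 99.3 and 43.1 CPM in Luc hearts, with overlap (log2 fold change -0.64, SE 0.21, limma adjusted p = 0.046), and its call was lost in 22 of 34 alternative settings. Egln1 was measured at 179, 166, 163 and 191 CPM in AC and at 228, 225, 233 and 204 CPM in Luc hearts, without overlap (log2 fold change -0.35, SE 0.12, limma adjusted p = 0.047), and its call was lost in 21 of 34. Ldhb was measured at 708, 582, 591 and 685 CPM in AC and at 1248, 848, 1089 and 773 CPM in Luc hearts, also without overlap (log2 fold change -0.60, SE 0.17, limma adjusted p = 0.018). Pfkfb1 was measured at 5.95, 3.93, 4.34 and 4.62 CPM in AC and at 14.3, 10.7, 5.50 and 5.92 CPM in Luc hearts, with the highest AC value inside the Luc range (log2 fold change -0.74, SE 0.22, limma adjusted p = 0.027).

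P4ha1 and Hk3 were higher in AC hearts. P4ha1 was measured at 71.3, 72.9, 88.0 and 86.0 CPM in AC and at 40.6, 44.9, 37.5 and 59.8 CPM in Luc hearts, with no overlap (log2 fold change 0.80, SE 0.17, limma adjusted p = 0.0029), and it stayed called under all 34 alternative settings. Hk3 was measured at 7.09, 9.27, 10.3 and 8.15 CPM in AC and at 4.09, 4.59, 4.44 and 5.48 CPM in Luc hearts, with no overlap (log2 fold change 0.77, SE 0.23, limma adjusted p = 0.025). Per 1000 CPM of cardiomyocyte markers, Hif3a was 0.0215 ± 0.00781 (SD, n = 4) in AC and 0.0830 ± 0.0281 (n = 4) in Luc hearts, without overlap, whereas Egln1 was 4.71 ± 0.489 and 4.49 ± 0.530, with overlap. Ldhb on this scale was 17.3 ± 1.59 in AC and 19.6 ± 1.53 in Luc hearts, and Bnip3 2.78 ± 0.505 and 3.65 ± 0.870, both with overlap. The calls of Ldhb, Pfkfb1 and Hk3 between AC and Luc hearts at 48 h were lost in 5, 6 and 6 of the alternative settings.

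Within libraries, Ldha/Ldhb was 0.04 ± 0.08 (SD, n = 4) in AC and -0.59 ± 0.09 (n = 4) in Luc hearts at 48 h, and Pgam1/Pgam2 -0.92 ± 0.25 and -1.42 ± 0.11. Neither overlapped, each with the smallest exact permutation p that 4 against 4 libraries allow, 0.029 (two-sided), and an adjusted p = 0.18. Ldha itself was not called, with a log2 fold change of 0.02 ± 0.16 (SE) and a 95% interval from -0.32 to 0.36. The carriers and most glycolytic enzymes were not called, with log2 fold changes of -0.38 ± 0.23 for Slc2a1, 0.13 ± 0.36 for Slc16a3 and -0.05 ± 0.16 for Pgk1 (SE; limma adjusted p = 0.29, 0.84 and 0.85). Adm missed the threshold (log2 fold change -1.07, SE 0.37, limma adjusted p = 0.056).

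**Figure D5:**
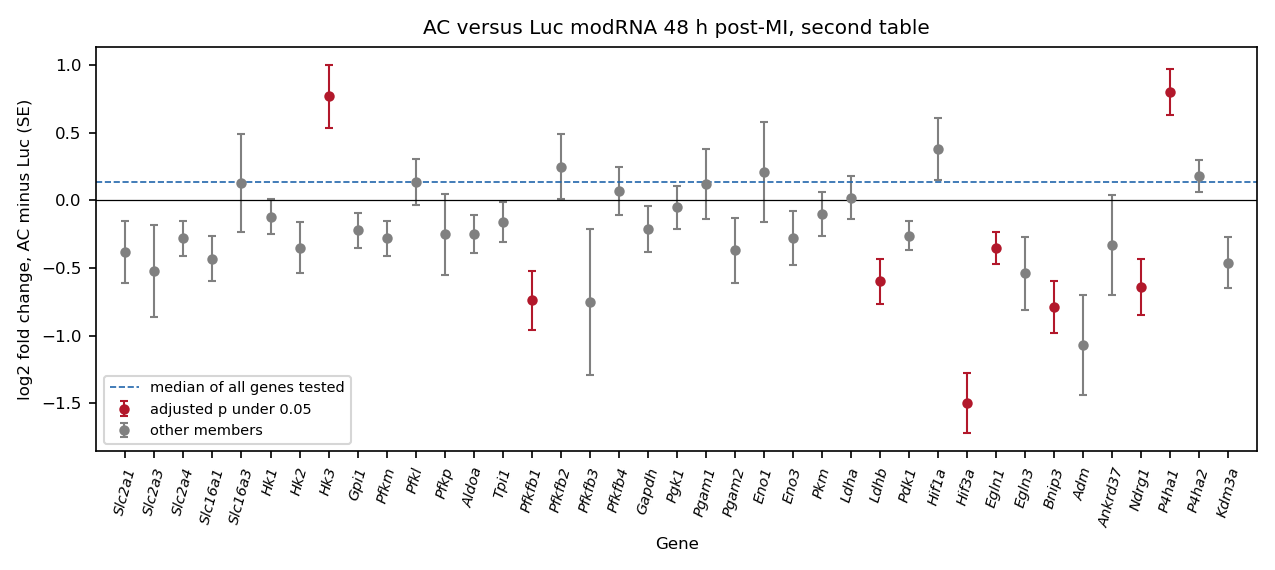
Log2 fold change of the 39 tested members between AC and Luc hearts 48 h post-MI (y axis, AC minus Luc), with SE bars, from 4 and 4 libraries, in order of role (x axis). Red points passed an adjusted p of 0.05, and the dashed line marks the median of all genes, 0.14. Hif3a is the lowest at -1.50, and P4ha1 and Hk3 are the highest at 0.80 and 0.77.

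The effect of AC was tested for a difference between times. Against 4 h, 3 members had another effect at 48 h, with 3.35% of all genes called (2.88% higher and 0.47% lower). The effect on Hif3a was lower by 1.60 on the log2 scale (SE 0.32, limma adjusted p = 0.0094) and that on Bnip3 by 1.02 (SE 0.27, limma adjusted p = 0.038), while that on P4ha1 was higher (log2 fold change 1.14, SE 0.24, limma adjusted p = 0.011). The call of Bnip3 was lost in 12 of the fits that each left out 1 library. With median-ratio rescaling 1 effect was higher and 4 were lower, and 5 were called without Luc library 4 at 48 h. Against 24 h, the effect on Bnip3 at 48 h fell by 1.08 (SE 0.29, limma adjusted p = 0.049), as the only member called, with 2.56% of all genes called (2.23% higher and 0.335% lower), and this call was lost in 16 of the fits that each left out 1 library. Between 24 and 4 h no member was called (0.00796% of all genes).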

How the data were processed

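Both expression tables were deposited as CPM. For the first, the authors aligned single-end reads of stranded mRNA libraries with STAR to mm10, quantified RefSeq transcripts with the expectation-maximization method of Partek and scaled the counts by TMM. For the second, the sources used here name only mm10. Its lowest deposited value was exactly 1 in all 24 libraries, and 1 was subtracted. Whether counting used strand is not given in the sources used here, and reads of near-identical copies may have been divided.

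Tests ran with limma 3.58.1 (trend, all groups of a table in 1 fit, R 4.3.3) on log2(CPM + 1) over genes whose mean reached 1 CPM, with Benjamini-Hochberg adjustment across all of them. Fold changes on this scale understate the change of low genes. Ratios of mean CPM carry a propagated SD. Isoform ratios were tested by two-sided exact permutation over libraries (SciPy 1.17.1). Estimated reads of the first table are a library's summed CPM over the listed genes divided by its lowest value, taken as 1 read: of the values below 20 times the lowest, 82.1% to 85.2% per library were whole multiples of it within 0.02. It holds 0 values at 0, and whether 1 read was added to each value is not given in the sources used here. The labels list libraries as separate samples without saying that each is another mouse, and p-values measure only the spread between them. The limma step was tested on simulated data, and the permutation step on small made groups with a known result. The values of 1 gene on a wider list are not reported here.

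The 40 genes and all lists were chosen with earlier results of these data known. Values in every library are given for isoform pairs, 6 fixed genes, the 8 largest changes at 4 h and at 24 h and each member called between AC and Luc hearts, 27 genes in all, in the second table only where its results turn on them. Alternatives were other pseudocounts, filters, variance models, scalings and sample sets, a replicate block and leaving out each library. Leaving 1 in place in the second table and summing Eno1 with Eno1b were added after seeing the data. Motif windows came from RefSeq promoters.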

Additional observations from a re-analysis of the deposited data

Results flagged for a closer look

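Of 135 checks of a member in a group of 4 libraries, 6 had 1 library far from the other 3 by Dixon's test, where chance gives about 1 in 20. At 24 h post-MI, Pfkfb2 was 20.4 CPM in library G against 11.0 to 12.5 CPM in the others, and Hif3a was 3.03 CPM in library D against 0.886 to 1.24 CPM. In Luc hearts at 4 h, library 1 held 1152 CPM of Pfkm against 987 to 1001 CPM and 1694 CPM of Ldhb against 1385 to 1426 CPM. In Luc hearts at 48 h, library 2 held 435 CPM of Pfkm against 504 to 514 CPM. In AC hearts at 48 h, library 2 held 107 CPM of Pdk1 against 121 to 123 CPM.

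The difference between AC and Luc hearts itself differed between times for 3 members (limma interaction, log2 scale). Between 48 h and 4 h the effect differed by -1.60 for Hif3a (SE 0.32, adjusted p = 0.0094), by -1.02 for Bnip3 (SE 0.27, adjusted p = 0.038) and by 1.14 for P4ha1 (SE 0.24, adjusted p = 0.011). Between 48 h and 24 h it differed by -1.08 for Bnip3 (SE 0.29, adjusted p = 0.049).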

How the results depend on the processing

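In the first table, 29 of the 31 members called at 24 h against sham and 28 of the 30 called against 4 h were called under every alternative in which they were tested, and leaving out a library gave 31 to 33 and 28 to 31 calls. The 3 calls at 4 h became 9 with array weights, 0 with equal-total rescaling and 0 to 4 without 1 library. In the second table, calls kept under every alternative numbered 6 of 18 for Luc at 24 h against sham, 6 of 18 at 48 h, 6 of 12 for 24 h against 4 h, 8 of 20 for 48 h against 24 h and 2 of 8 for AC against Luc at 48 h. Fitting only the groups compared gave 2 calls for Luc at 4 h against sham, 10 at 48 h, 19 for 24 h against 4 h, 3 for AC against Luc at 48 h and 0 for the change of the AC effect from 24 to 48 h. Array weights gave 10 calls for Luc at 48 h against sham, 19 for 24 h against 4 h, and 7 and 4 for the change of the AC effect from 4 and from 24 to 48 h. A minimum of 5 CPM gave 4 for AC against Luc at 48 h and 1 and 0 for those changes of effect, median-ratio rescaling 15, 5 and 3, and equal-total rescaling 2 for the change from 24 to 48 h. Without 1 library the counts were 6 to 22 for Luc at 24 h against sham, 10 to 20 at 48 h, 9 to 14 for 24 h against 4 h, 14 to 23 for 48 h against 24 h, 3 to 11 for AC against Luc at 48 h, and 2 to 5 and 0 to 3 for the changes of the AC effect. The cause was not tested. Under equal-total rescaling, Gpi1 (0.01), Pkm (0.00) and Pdk1 (0.05) were no longer lower in Luc hearts at 48 h than at 24 h.

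Libraries with the same number or letter did not deviate together in every pair (correlations of -0.265 to 0.55), and the labels do not say what a shared number or letter means. With the replicate block, the calls numbered 1 at 4 h and 31 at 24 h against sham and 31 at 24 h against 4 h in the first table, 16 for Luc at 48 h against sham, 6 for AC against Luc at 48 h, and 3 and 0 for the changes of the AC effect from 4 and from 24 to 48 h. Named calls lost with the block were Adm and Hif1a at 4 h (limma adjusted p = 0.20 for both) and Gapdh and Pfkl at 24 h (0.061 and 0.10) in the first table, Slc2a3, Pdk1 and Ndrg1 for Luc at 48 h against sham (0.059, 0.054 and 0.097), Egln1 and Ndrg1 for AC against Luc at 48 h (0.11 and 0.16) and Bnip3 for the change of the AC effect from 24 to 48 h (0.057). The block could not be fitted for the other comparisons of Luc hearts between times and for Luc at 24 h against sham. The depth of the second table is unknown, and its 2 sham libraries limit each comparison with sham.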

Other observations

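A list of 24 further genes of pyruvate entry and other isoforms was mostly lower at 24 h post-MI. Of its 21 genes tested, 15 were lower and 4 higher than in sham (30.3% and 35.6% of all genes), with a median log2 fold change of -0.70 against 0.04 over all genes. Pdp2, a phosphatase that activates pyruvate dehydrogenase, fell from a mean of 16.4 to 2.22 CPM (log2 fold change -2.49, SE 0.22, limma adjusted p = 3.1e-06), and the glucose carrier gene Slc2a12 from 9.52 to 0.700 CPM (-2.60, SE 0.24, limma adjusted p = 4.3e-06). Eno2, the neuronal enolase, rose from 1.71 to 38.2 CPM (3.85, SE 0.24, limma adjusted p = 3.8e-07) and Pgm1 from 3.59 to 21.4 CPM (2.27, SE 0.15, limma adjusted p = 5.6e-07). Between AC and Luc hearts at 48 h, 8 of 22 tested genes were lower and none was higher (3.27% and 12.1% of all genes). Among them, named after their values were seen, were Pdk4, a kinase that inhibits pyruvate dehydrogenase, with means of 114 CPM in AC and 587 CPM in Luc hearts (-1.69, SE 0.54, limma adjusted p = 0.038), and Pdha1, Pdhb, Dlat and Pdhx of the pyruvate dehydrogenase complex, at -0.38 to -0.48 on the log2 scale. The cardiomyocyte marker sum was lower in the same AC libraries, and its part was not tested.

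Of 29 tested genes of another hypoxia response list, 19 were higher and 5 lower at 24 h post-MI (35.6% and 30.3% of all genes), with a median log2 fold change of 0.77. Hmox1, the heme oxygenase, rose from 5.59 to 402 CPM (5.91, SE 0.30, limma adjusted p = 1.1e-07), Angptl4, an inhibitor of lipoprotein lipase, from 4.41 to 133 CPM (4.90, SE 0.48, limma adjusted p = 6e-06) and Lox, which crosslinks collagen, from 1.60 to 72.2 CPM (4.83, SE 0.19, limma adjusted p = 2.5e-08). At 4 h, 5 were higher and none was lower (1.55% and 0.817% of all genes), among them Hmox1 (1.55, SE 0.32, limma adjusted p = 0.03) and Lox (1.24, SE 0.20, limma adjusted p = 0.0077). Between AC and Luc hearts at 48 h, 2 were higher and 2 lower (12.1% and 3.27% of all genes). Of these 4, named after their values were seen, Ddit4, a stress-induced inhibitor of mTOR, was lower (means of 17.2 and 61.0 CPM, -1.59, SE 0.33, limma adjusted p = 0.0026), as was Mxi1 (-0.40), while the collagen-modifying enzymes Loxl2 (1.29, SE 0.20, limma adjusted p = 0.0002) and Plod1 (0.50, SE 0.14, limma adjusted p = 0.023) were higher. None of these 2 lists had a gene called between AC and Luc hearts at 4 or 24 h.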
